A study of Mus musculus with 13 samples.

Results

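Wild-type Ikaros was compared with 159A, an Ikaros mutant that binds DNA poorly, in a mouse pre-B cell line 48 h after infection. Both transduced arrays of each kind were used, 4 of the 13 arrays of the series, chosen by their titles. All 18194 genes that the Mouse Genome 430 2.0 table names by a single symbol entered, and the 10916 brightest were tested. The line, B3, was grown in culture and transduced with a mouse stem cell virus (MSCV) vector. The Ikaros group carried HA-Ikaros-IRES-GFP, in which wild-type Ikaros bears a haemagglutinin tag and is followed by an internal ribosome entry site and GFP. The control group carried HA-159A Ikaros-IRES-GFP, the same construct with the mutated protein. Both groups were therefore infected, tagged and marked with GFP alike, and neither was an uninfected or an empty-vector control. RNA came from bulk cultures of a single line, in which fewer cells of a type and less RNA per cell cannot be told apart, and the labels do not say whether GFP+ cells were sorted. The titles call the arrays biological replicates without saying whether the cultures were separate. The p-values therefore cover only the spread between these arrays, whose small number limits how precise any value is.

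Ikaros, the product of Ikzf1, is a transcription factor of lymphoid cells that binds DNA through zinc fingers, acts together with chromatin remodelling complexes such as NuRD, and can repress or activate its targets. In early B cells the pre-B cell receptor pairs an immunoglobulin heavy chain with a surrogate light chain, made of the products of Igll1 and Vpreb1, and drives a burst of division. Pre-B cells then leave the cycle, re-express the recombinase genes Rag1 and Rag2 and rearrange a light chain gene.

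Promoters of 3 genes whose levels differed widely between the groups are shown as the context of the results that follow. Igll1 and Vpreb1 fell and Rag1 rose with wild-type Ikaros. The sequences are the 250 bases before the annotated start, 5′ to 3′ on the gene's strand, from RefSeq on GRCm38.p6. Igll1 lies at chr16:16863986-16864235, Vpreb1 at chr16:16869256-16869505 and Rag1 at chr2:101649533-101649782, all on the minus strand. Capitals mark TGGGAA, which holds core letters bound by Ikaros, searched on both strands.
Igll1: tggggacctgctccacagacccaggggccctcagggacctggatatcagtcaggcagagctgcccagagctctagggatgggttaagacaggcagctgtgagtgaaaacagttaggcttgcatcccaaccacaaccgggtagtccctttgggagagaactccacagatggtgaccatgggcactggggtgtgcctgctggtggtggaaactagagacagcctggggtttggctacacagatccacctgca
Vpreb1: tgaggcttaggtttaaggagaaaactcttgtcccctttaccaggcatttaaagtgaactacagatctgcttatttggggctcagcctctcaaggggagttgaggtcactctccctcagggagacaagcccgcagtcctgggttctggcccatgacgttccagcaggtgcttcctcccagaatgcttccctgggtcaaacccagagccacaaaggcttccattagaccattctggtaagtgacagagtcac
Rag1: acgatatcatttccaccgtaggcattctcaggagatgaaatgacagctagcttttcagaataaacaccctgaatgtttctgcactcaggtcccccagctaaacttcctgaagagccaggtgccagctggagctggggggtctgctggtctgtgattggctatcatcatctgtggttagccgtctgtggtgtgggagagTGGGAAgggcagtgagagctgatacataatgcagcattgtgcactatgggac
These letters occurred 1 time in the Rag1 window, 52 bases before the start, and not in the other 2 windows. Over all promoters in the table, 21.6% held them (7094 of 32851 promoters of 27025 genes). The share was 18.6% for genes that rose at 48 h (146 of 784 promoters), 24% for genes that fell (230 of 957) and 19.4% for tested genes that were not called (1876 of 9647). A match is a description of the letters and says nothing of binding.

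The values are the authors' log2 values, 1 per probe set. Their lowest value was 2.19 and a group whose mean lay below 3.19, 1 log2 unit above it, is called near the floor here. A difference against such a group is given as a bound, "at least" so many fold, because the true level below the floor is unknown. Genes are said to have risen or fallen with wild-type Ikaros, relative to 159A cells at the same time, where limma's adjusted p was under 0.05. Errors after a log2 difference are the standard errors of that fit, with n = 2 arrays per group throughout, and values on arrays are given in the order replicate 1 and replicate 2.

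Of the tested genes, 1621 passed, or 14.8%. They comprised 696 that rose (6.38%) and 925 that fell (8.47%), and the median over all tested genes was 0.00. Their adjusted p-values lay between 0.0153 and 0.0499 (limma, Benjamini-Hochberg), so single genes were near the threshold as a rule. In every one of the 1621 both Ikaros arrays lay on the same side of both 159A arrays, but so they did in 57.7% of all tested genes. Among genes whose values were clear of the floor on all 4 arrays, 172 of 648 rises and 328 of 842 falls reached 2 log2 units, and the median sizes were 1.39 and 1.67. In 44 rises the 159A group was near the floor, and in 78 falls the Ikaros group was. A bound applies to these unless both groups were near the floor. With all arrays 3674 genes had an unadjusted p under 0.05 (limma). The calls depended on all 4 arrays, as given at the end. With any 1 left out, the genes given below with a fitted difference kept their direction except Cd79a. Cd79a did not pass with all arrays either. Where both arrays of a group lie on the same side of the other group, leaving 1 out cannot change the direction. Kept directions therefore add nothing to the calls. Without the filter on low genes 185 passed. With each array centred on its median, which shifted every log2 difference by 0.11, 2437 passed and 50.7% of them were higher, against 42.9%.

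**Figure D1:**
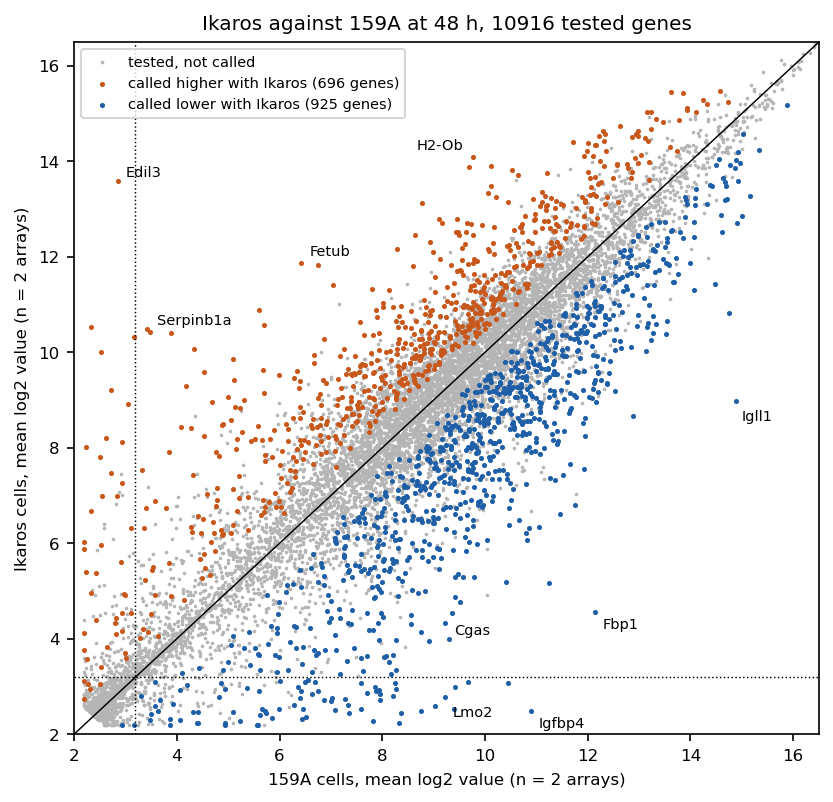
Mean log2 value of each tested gene in the Ikaros cells against the 159A cells (n = 2 arrays each). Orange points are the 696 genes that rose, blue points the 925 that fell and grey points those that were not called, the diagonal marks equal values and dotted lines mark the floor limit of 3.19. Edil3 rose from near the floor, Igfbp4 and Lmo2 fell to it, and Igll1 and Fbp1 fell far below the diagonal while clear of it.

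Pearson's r over probe sets was 0.987 between the Ikaros arrays and 0.995 between the 159A arrays, and 0.967 to 0.973 between groups. The median SD of a gene was 0.24 log2 units in Ikaros cells and 0.15 in 159A cells. In 45 called genes one group had an SD of 0, which means the same value on both of its arrays and lowers the standard error. Among those given below are Itgal, Flt3 and Tbl3. Whether such a value marks a lower limit of the probe set was not tested. The log2 difference between the 3′ and 5′ control probe sets of Actb was 3.64 and 2.47 on the Ikaros arrays and 3.29 and 2.69 on the 159A arrays. For Gapdh it was 4.46 and 2.67 on the Ikaros arrays and 3.42 and 2.35 on the 159A arrays. It was higher on replicate 1 than on replicate 2 in both groups for both genes, and for Gapdh it was also higher with Ikaros at either replicate number. Its part in the results was not tested. All 9 measured B-lineage markers were above the floor in both groups. Of the markers of other cells, 9 of 12 for T cells, 15 of 20 for myeloid cells, 11 of 14 for natural killer cells, 9 of 12 for red cells and megakaryocytes and 12 of 15 for fibroblasts were near the floor in both, among them Cd3e, Csf1r, Ncr1, Alas2 and Col1a1.

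Ikzf1, the transduced gene, checks the labels only in part, since both proteins are encoded by nearly the same sequence and the cells carry their own Ikzf1. The brightest probe set read 12.001 and 12.08 in Ikaros cells and 11.82 and 11.61 in 159A cells. These values were high in all 4 arrays, and the difference of 0.33 ± 0.11 did not pass (adjusted p = 0.175). A second probe set read 4.11 and 4.77 in Ikaros cells and 12.83 and 12.73 in 159A cells, a difference of -8.34. Both 159A arrays were far above both Ikaros arrays on that probe set. The files do not say which part of the transcript each probe set reads, so no level of total or endogenous Ikzf1 is drawn from them.

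Among surrogate light chain, receptor chain and signalling genes 3 fell, Igll1 and Vpreb1 among them, and 7 rose. Igll1, which encodes the lambda5 chain, read 8.94 and 8.995 in Ikaros cells and 14.67 and 15.11 in 159A cells. Both Ikaros arrays lay close together and far below, and the gene fell by 5.92 ± 0.20 log2 units, 60.6-fold. Vpreb1, which encodes its partner, read 11.25 and 10.40 against 14.77 and 14.72 and fell by 3.92 ± 0.36, or 15.1-fold. The Ikaros arrays differed from each other by more than the 159A arrays did, without overlap between groups. Their promoters, shown above, lie close together on chromosome 16. A second Igll1 probe set read 2.38 on all 4 arrays, near the floor, and the one used here is of a kind that can also read similar sequences.

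Downstream of the receptor, Cd79b, a signalling chain of the B cell receptor, read 14.86 and 14.62 in Ikaros cells and 12.88 and 12.36 in 159A cells and rose by 2.12 ± 0.25. Syk, the kinase that binds phosphorylated Cd79 chains, read 13.37 and 13.12 against 11.46 and 11.11 and rose by 1.96 ± 0.19, or 3.89-fold. The adaptor Bank1 rose by 2.08 ± 0.22 and the kinase Tec by 0.91 ± 0.07. For each of these genes both Ikaros arrays were the higher ones. Of 33 tested members of the list of surrogate light chain, receptor chains and signalling genes, 7 rose and 3 fell (21.2% and 9.09%, against 6.38% and 8.47% of all tested genes), with a median difference of 0.40. Cd79a, the partner of Cd79b, read 11.55 and 10.89 in Ikaros cells and 11.25 and 10.14 in 159A cells. Its groups overlapped and it did not pass (adjusted p = 0.574). Blnk, the linker that Syk phosphorylates, read 11.26 and 10.13 against 9.24 and 7.99, a difference of 2.08 ± 0.71 that did not pass either (adjusted p = 0.18).

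Inhibitory receptors and phosphatases gave 3 rises and 0 falls among 17 tested members (17.6% and 0%, against 6.38% and 8.47% of all tested genes), with a median of 0.45. Fcgr2b, the inhibitory Fc receptor of B cells, read 8.94 and 9.06 in Ikaros cells and 4.97 and 5.63 in 159A cells. It rose by 3.71 ± 0.29 log2 units, 13-fold. Its other probe sets clear of the floor gave larger differences, 4.53 log2 units (23.1-fold) and 7.05 (133-fold). Dok3, an adaptor that dampens receptor signals, rose by 1.803 ± 0.12, and Siglecg, a sialic acid receptor that restrains B cells, by 0.75 ± 0.10 from values of 3.22 and 3.33 just above the floor limit. Of 14 listed immunoglobulin light chain symbols, 2 were measured by a probe set with 1 symbol. Of these, 1 was tested, and the other was near the floor in both groups. Iglv1, a lambda variable segment, read 10.06 and 9.94 in Ikaros cells and 2.53 and 2.53 in 159A cells, near the floor, and was at least 112-fold higher. That bound rests on 1 probe set, of a kind that can also read similar sequences. Another Iglv1 probe set read 3.02 and 3.47 against 2.475 and 2.86, at least 1.04-fold higher. The remaining one was near the floor in both groups. Outside that list, Jchain, which joins antibody units, read 8.28 and 8.12 against 2.41 and 2.82 and was at least 32.1-fold higher.

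**Figure D2:**
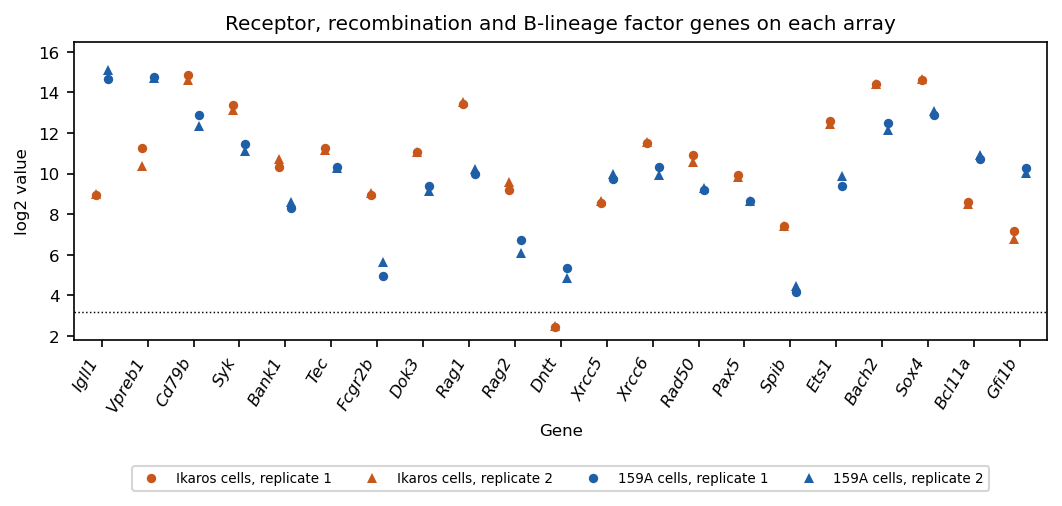
Log2 values of receptor, recombination and B-lineage factor genes on each array, Ikaros cells in orange and 159A cells in blue, circles for replicate 1 and triangles for replicate 2, with the floor limit as a dotted line. The surrogate light chain genes are lower in Ikaros cells while Cd79b, Syk, Rag1, Rag2 and Ets1 are higher. Only called genes are shown, and no called gene had overlapping groups. The groups also did not overlap in 57.7% of all tested genes. Cd79a, Blnk and Ebf1, which did not pass, are not shown.

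Recombination genes moved in both directions, led by both recombinase subunits. Rag1 read 13.44 and 13.52 in Ikaros cells and 9.99 and 10.23 in 159A cells and rose by 3.37 ± 0.12, or 10.4-fold. Rag2 read 9.20 and 9.59 against 6.71 and 6.09 and rose by 3.00 ± 0.31, or 7.97-fold. Neither gene's groups came near each other. Among end-joining genes, Lig4, the ligase that seals the joined ends, rose by 2.97 ± 0.39 from 9.30 and 9.67 to 12.04 and 12.87. Rad50, a subunit of a break-sensing complex, rose by 1.49 ± 0.17. The Ku subunits parted: Xrcc6 (Ku70) rose by 1.42 ± 0.17, from 10.31 and 9.94 to 11.53 and 11.57, while Xrcc5 (Ku80) fell by 1.24 ± 0.11, from 9.76 and 9.96 to 8.57 and 8.67. Dntt, the terminal transferase that adds untemplated bases at junctions, read 2.46 and 2.47 in Ikaros cells, near the floor, and 5.33 and 4.86 in 159A cells, and was at least 3.74-fold lower. Of 20 tested members 5 rose and 2 fell (25% and 10%, against 6.38% and 8.47% of all tested genes), with a median of 0.51. Lig4 and Xrcc6 were chosen for mention after their values were seen, as were Ets1, Bach2, Foxo1, Pou2af1, Pcna, Rrm2, Samhd1, Rrm2b, Ctps2, Dck, Polr1b and Slc7a5 in the accounts below.

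Of 47 tested transcription factors of the B lineage, 10 rose and 2 fell, with a median of 0.42. These were 21.3% and 4.26%, against 6.38% and 8.47% of all tested genes. Pax5, which holds B-cell identity, read 9.92 and 9.84 in Ikaros cells and 8.63 and 8.63 in 159A cells and rose by 1.25 ± 0.06. Spib, an Ets factor, read 7.42 and 7.43 against 4.17 and 4.47 and rose by 3.10 ± 0.14, or 8.56-fold. Ets1 read 12.57 and 12.45 against 9.38 and 9.88 and rose by 2.88 ± 0.22, or 7.36-fold. Both Ikaros arrays of these genes were tightly placed above the 159A arrays. Bach2, a repressor that holds back plasma cell fate, rose by 2.10 ± 0.16, Sox4 by 1.66 ± 0.11, Foxo1, an activator of the recombinase genes, by 1.78 ± 0.21, and the octamer coactivator Pou2af1 by 1.88 ± 0.25. Ebf1, which acts with Pax5, differed by 1.24 ± 0.27 without passing (adjusted p = 0.088). Both falls were of zinc-finger repressors. Bcl11a read 8.62 and 8.52 against 10.74 and 10.89 and fell by 2.25 ± 0.10, and Gfi1b, known from red cell and platelet development, read 7.17 and 6.79 against 10.28 and 10.04 and fell by 3.18 ± 0.20, or 9.05-fold.

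Further falls lay among stem and progenitor factors. Lmo2, which bridges transcription factors in early blood cells, read 2.79 and 2.74 in Ikaros cells, near the floor, and 9.37 and 9.07 in 159A cells and was at least 65.2-fold lower. Tal1, a helix-loop-helix partner of Lmo2, read 2.53 and 2.53 against 7.48 and 7.69 and was at least 21-fold lower. Lyl1, the closest relative of Tal1, read 10.72 and 10.82 against 13.24 and 13.31 and fell by 2.51 ± 0.08. Hhex, a homeobox gene of progenitors, went the other way and rose by 1.79 ± 0.12, as did Flt3, a cytokine receptor, by 0.68 ± 0.06 from 3.45 and 3.45. Only 8 of 21 measured members of this list were bright enough to be tested. Of these, 2 rose and 3 fell (25% and 37.5%, against 6.38% and 8.47% of all tested genes). The list median of 0.25 became -1.14 when the probe sets of a gene were averaged.

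Cell surface genes that mark stages of B-cell development gave 4 rises and 1 fall among 15 tested members (26.7% and 6.67%). Over all tested genes the shares were 6.38% and 8.47%. Il2ra, or CD25, which appears on small pre-B cells, read 9.72 and 8.68 in Ikaros cells and 2.76 and 2.69 in 159A cells, and was at least 64.5-fold higher. Cd53, a tetraspanin, read 12.83 and 12.58 against 8.88 and 9.45 and rose by 3.54 ± 0.27. Spn, or CD43, which is lost as pro-B cells mature, read 7.75 and 6.98 against 11.35 and 11.18 and fell by 3.90 ± 0.33, or 14.9-fold. Ms4a1, or CD20, passed with values of 2.68 and 2.77 against 2.19 and 2.19, where both groups were near the floor, so no fold is given. Cd24a was high in both groups, at 15.22 and 15.18 and 14.94 and 14.996, and did not pass (adjusted p = 0.126).

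Genes of the interleukin-7 pathway, which sustains early B cells, gave 1 rise and 2 falls among 16 tested members (6.25% and 12.5%). These shares lay near the 6.38% and 8.47% of all tested genes. The list median of -0.07 changed sign to 0.04 on centring. The 1 rise was that of Il2ra, which belongs to both lists. The signalling inhibitors Socs2 and Socs3 fell by 1.09 ± 0.07 and by 1.91 ± 0.21. Myc, a transcription factor that promotes growth, read 9.29 and 9.19 in Ikaros cells and 12.19 and 12.01 in 159A cells and fell by 2.86 ± 0.10, or 7.25-fold. Both Ikaros arrays lay far below both 159A arrays. Mxd4 and Mxd1, antagonists that compete with Myc for Max, moved the opposite way. Mxd4 read 14.62 and 14.46 against 12.04 and 12.38 and rose by 2.32 ± 0.17, and Mxd1 rose by 1.71 ± 0.15. Mlxip, a glucose sensor of the same network, rose by 1.49 ± 0.14, and Zbtb17, a partner of Myc at repressed genes, by 0.82 ± 0.10. Of 13 tested members of the Myc network 5 rose and 1, Myc itself, fell (38.5% and 7.69%, against 6.38% and 8.47% of all tested genes).

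Of 17 tested D cyclin, Cdk and inhibitor genes 2 rose and 2 fell (11.8% each, against 6.38% and 8.47% of all tested genes), and 13 did not pass. Ccnd2, a D-type cyclin, read 11.52 and 11.35 in Ikaros cells and 14.52 and 14.45 in 159A cells and fell by 3.05 ± 0.09, or 8.27-fold. All 7 of its probe sets were lower, with differences between -3.82 and -2.57. Cdk6, the kinase that D cyclins activate, read 12.51 and 12.54 against 14.75 and 14.47 and fell by 2.08 ± 0.13. The inhibitor Cdkn1b, or p27, read 12.07 and 11.76 against 9.96 and 9.73 and rose by 2.06 ± 0.17, and Ccng2, a cyclin of resting cells, rose by 2.37 ± 0.22. These were the 2 rises and 2 falls. Among 16 E2F factors and pocket proteins 0 rose and 5 fell (31.2%), with a median of -0.77. E2f7 read 6.10 and 6.64 against 10.52 and 10.40 and fell by 4.09 ± 0.24. E2f2 fell by 3.42 ± 0.35, E2f8 by 2.60 ± 0.23, E2f1 by 1.18 ± 0.07 and Tfdp1, a dimer partner of E2f1 and E2f2, by 1.74 ± 0.12.

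Genes of DNA replication were lower across the list. All 49 tested members had a negative difference, 27 of them past the threshold (55.1%, against 8.47% of all genes), and the median was -1.81. Cdc6, which loads the replicative helicase, read 7.47 and 7.84 in Ikaros cells and 11.71 and 11.61 in 159A cells and fell by 4.00 ± 0.17, or 16.1-fold. The helicase cofactor Gins1 fell by 2.82 ± 0.09, the polymerase delta subunit Pold1 by 2.12 ± 0.06, the histone chaperone Chaf1b by 2.38 ± 0.05 and the flap nuclease Fen1 by 1.20 ± 0.06. Pcna, the sliding clamp, read 12.62 and 13.11 against 14.74 and 14.46 and fell by 1.73 ± 0.24. In each, both Ikaros arrays lay below both 159A arrays.

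Mitosis and spindle genes were lower too. All 49 tested members had a negative difference, with a median of -1.92, but 8 passed (16.3%, against 8.47% of all tested genes). That count was 26 with the stricter filter on low genes and 17 when only genes clear of the floor were tested. Cdca2, a chromatin regulator at mitotic exit, read 7.36 and 7.74 in Ikaros cells and 9.68 and 9.66 in 159A cells and fell by 2.12 ± 0.17. Espl1, the protease that parts sister chromatids, read 7.72 and 8.14 against 10.44 and 10.03 and fell by 2.31 ± 0.25. Foxm1, an activator of mitotic genes, fell by 2.16 ± 0.21, the kinase Aurka by 1.70 ± 0.17 and Cdca8, which works with the Aurora B kinase, by 1.87 ± 0.17. Homologous recombination and Fanconi genes followed the same direction, with all 26 tested members lower, 11 called (42.3%) and a median of -1.81. Among them Brca2 read 5.15 and 5.78 against 9.27 and 8.94 and fell by 3.64 ± 0.30, and the nuclease Exo1 fell by 3.798 ± 0.28.

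**Figure D3:**
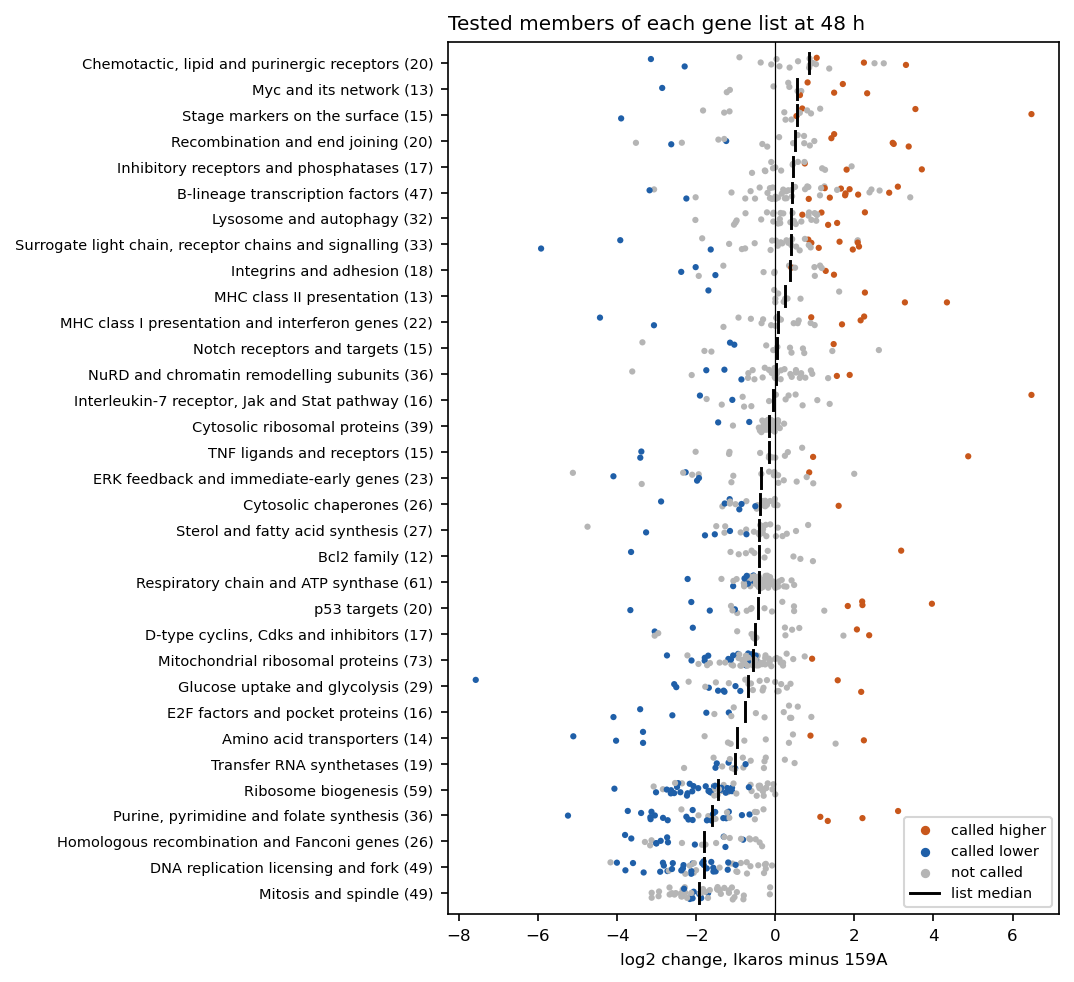
Log2 differences of the tested members of 33 gene lists (number tested in parentheses), orange for members that rose, blue for those that fell, grey for those not called, with the list median as a black bar. Replication, mitosis, homologous recombination, nucleotide synthesis and ribosome biogenesis lie at the low end with medians between -1.92 and -1.46, while the receptor, factor and recombination lists have medians between 0.40 and 0.51 and hold members of both directions.

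Nucleotide synthesis genes gave 22 falls and 4 rises among 36 tested members (61.1% and 11.1%, against 8.47% and 6.38% of all tested genes). The list median was -1.59. Ctps, which makes CTP, read 9.26 and 9.06 in Ikaros cells and 12.30 and 12.11 in 159A cells and fell by 3.04 ± 0.13. Umps, of the pyrimidine pathway, fell by 3.39 ± 0.15, and the mitochondrial folate enzymes Mthfd2 and Mthfd1l fell by 3.73 ± 0.18 and by 1.31 ± 0.07. Tyms, which makes thymidylate, read 2.60 and 2.83 in Ikaros cells, near the floor, and 7.64 and 8.28 in 159A cells and was at least 27.2-fold lower. Rrm2, a subunit of ribonucleotide reductase, read 10.07 and 10.70 against 13.54 and 13.49 and fell by 3.13 ± 0.27. The 4 rises were Samhd1, Rrm2b, Ctps2 and Dck. Samhd1 degrades deoxynucleotides and rose by 3.10 ± 0.19, from 6.81 and 6.52 to 9.93 and 9.61. Rrm2b is the reductase subunit used outside S phase and rose by 2.20 ± 0.27.

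Ribosome biogenesis genes fell in 30 of 59 tested members (50.8%, against 8.47% of all tested genes), none rose, and the median was -1.46. Polr1b, a subunit of RNA polymerase I, read 4.67 and 4.32 in Ikaros cells and 8.67 and 8.46 in 159A cells and fell by 4.07 ± 0.18, or 16.8-fold. Rrp1b fell by 3.02 ± 0.09, Grwd1 by 2.74 ± 0.10, Rrp12 by 2.63 ± 0.08 and Rrp15 by 2.22 ± 0.07, all of them factors of ribosome assembly. Tbl3, a part of the small subunit processome, fell by 1.36 ± 0.06, with the same value of 6.94 on both Ikaros arrays. Cytosolic ribosomal proteins themselves had 0 rises and 2 falls among 39 tested members (5.13%) and a median of -0.15. Over all tested genes 6.38% rose and 8.47% fell. Rpl12 fell by 1.44 ± 0.11 and Rps6 by 0.66 ± 0.06. Mitochondrial ribosomal proteins had 17 falls and 1 rise among 73 (23.3% and 1.37%), with a median of -0.57, for example Mrpl52, which fell by 2.74 ± 0.19, and Mrps34, which fell by 2.12 ± 0.12. Transfer RNA synthetases had 5 falls among 19 (26.3%), among which Mars1, the methionine enzyme, fell by 1.51 ± 0.06 and Aars, the alanine enzyme, by 1.18 ± 0.06. Of 7 polyamine genes 3 fell and 1 rose (42.9% and 14.3%, against 8.47% and 6.38% of all tested genes). Srm, spermidine synthase, read 8.85 and 8.49 against 12.95 and 12.81 and fell by 4.21 ± 0.17, and Odc1, the first enzyme of the pathway, fell by 2.16 ± 0.20. Sat1, which starts polyamine breakdown, rose by 1.95 ± 0.25.

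Glucose metabolism gave 9 falls and 2 rises among 29 tested members (31% and 6.9%, against 8.47% and 6.38% of all tested genes). The list median was -0.68. The largest fall of any gene clear of the floor on all 4 arrays belonged to Fbp1, a gluconeogenic enzyme that opposes glycolysis. It read 4.85 and 4.27 in Ikaros cells and 12.22 and 12.04 in 159A cells and fell by 7.57 ± 0.27, or 190.4-fold. The glycolytic enzymes Aldoa and Gapdh fell by 1.31 ± 0.06 and by 1.01 ± 0.07, and the enolase gene Eno3 by 2.56 ± 0.10. The lactate transporter gene Slc16a1 rose by 1.58 ± 0.07, from 13.90 and 13.82 to 15.47 and 15.40. Amino acid transporters had 4 falls and 2 rises among 14 (28.6% and 14.3%). Slc7a1, a carrier of basic amino acids, read 9.29 and 9.07 against 12.54 and 12.50 and fell by 3.34 ± 0.11, or 10.2-fold. Slc7a5, the light chain of a carrier of large neutral amino acids, read 7.88 and 6.78 against 11.67 and 11.04 and fell by 4.03 ± 0.54, with more than 1 log2 unit between the Ikaros arrays. Slc7a3 read 3.03 and 2.66 against 7.99 and 7.91 and was at least 27.1-fold lower, while Slc7a7 rose by 2.24 ± 0.26.

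Respiratory chain and ATP synthase genes had 7 falls and 0 rises among 61 tested members (11.5% and 0%), with a median of -0.40. That share of falls lay near the 8.47% of all tested genes, of which 6.38% rose. Atp5g1, of the ATP synthase ring, fell by 2.22 ± 0.16. Sterol and fatty acid synthesis had 5 falls and 0 rises among 27 (18.5% and 0%), and Fads2, a desaturase, fell by 3.27 ± 0.42 and Fasn, fatty acid synthase, by 1.15 ± 0.13. Cytosolic chaperones and chaperonins had 6 falls and 1 rise among 26 (23.1% and 3.85%). The mitochondrial chaperonin Hspd1 fell by 2.89 ± 0.21, and Hspa1b, an inducible Hsp70, rose by 1.60 ± 0.13. Lysosome and autophagy genes went the other way, with 5 rises and 0 falls among 32 (15.6% and 0%) and a median of 0.41. Ctss, a protease of antigen processing, read 13.54 and 12.87 in Ikaros cells and 10.89 and 10.98 in 159A cells and rose by 2.27 ± 0.29. Map1lc3b, an autophagosome protein, rose by 1.17 ± 0.09, and Ctsa and Neu1, lysosomal enzymes that form a complex, rose by 1.56 ± 0.17 and 1.34 ± 0.16.

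The Bcl2 family gave 1 rise and 1 fall among 12 tested genes (8.33% each), shares near the 6.38% and 8.47% of all tested genes. Bmf, a pro-apoptotic BH3-only protein, rose by 3.18 ± 0.36, from 6.05 and 6.51 to 9.82 and 9.10, and Bok fell by 3.65 ± 0.19. Known p53 targets had 4 rises and 4 falls among 20 (20% each). Gadd45a, a growth arrest gene, read 9.86 and 9.39 in Ikaros cells and 5.78 and 5.55 in 159A cells and rose by 3.96 ± 0.23, or 15.6-fold. Sesn1, a stress-induced inhibitor of growth signalling, rose by 2.20 ± 0.12. Pidd1 fell by 2.12 ± 0.23, and Eda2r, near the floor in Ikaros cells at 2.62 and 2.62, was at least 8.51-fold lower. Feedback genes of the ERK pathway and immediate-early genes had 4 falls and 1 rise among 23 (17.4% and 4.35%). Phlda1 read 7.61 and 7.23 against 11.67 and 11.35 and fell by 4.09 ± 0.22, and the ERK phosphatase Dusp4 fell by 2.27 ± 0.16, Etv5 by 1.98 ± 0.27 and Jun by 1.93 ± 0.22. Their number of falls was 9 when only genes clear of the floor were tested.

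Antigen presentation genes did not share a direction. H2-Ob, a subunit of the H2-O protein that modulates peptide loading of class II, read 13.96 and 14.23 in Ikaros cells and 9.88 and 9.63 in 159A cells and rose by 4.34 ± 0.17, or 20.2-fold. H2-Oa, its partner, read 9.62 and 9.61 against 6.20 and 6.46 and rose by 3.28 ± 0.12. The classical class II chain H2-Ab1 fell by 1.69 ± 0.15, from 9.48 and 9.18 to 7.58 and 7.70. Of 22 class I and interferon genes 4 rose and 2 fell (18.2% and 9.09%, against 6.38% and 8.47% of all tested genes). B2m, the class I light chain, rose by 0.91 ± 0.07 and the interferon factor Irf1 by 2.25 ± 0.23. The RNA sensors parted, with Ddx58 (RIG-I) rising by 1.69 ± 0.10 and Ifih1 (MDA5) falling by 3.07 ± 0.31. Bst2, or tetherin, read 3.37 and 3.85 against 8.02 and 8.06 and fell by 4.43 ± 0.21, or 21.6-fold.

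Integrin and adhesion genes gave 3 rises and 3 falls among 18 tested members (16.7% each, against 6.38% and 8.47% of all tested genes). Itgal, the alpha chain of LFA-1, read 4.22 and 4.22 in Ikaros cells and 6.59 and 6.603 in 159A cells and fell by 2.38 ± 0.05, while its ligand Icam1 rose by 1.27 ± 0.16. Itgav, an integrin alpha chain, rose by 1.48 ± 0.10, and the focal adhesion proteins Vcl and Pxn fell by 2.01 ± 0.08 and by 1.51 ± 0.19. Chemotactic, lipid and purinergic receptors gave 3 rises and 2 falls among 20 (15% and 10%), with a median of 0.86. P2ry10, a lysophospholipid receptor, read 13.64 and 14.02 against 10.46 and 10.59 and rose by 3.30 ± 0.18, or 9.88-fold, and Rgs2, an inhibitor of G protein signalling, rose by 2.24 ± 0.10. P2rx7, an ATP-gated channel, read 2.75 and 2.29, near the floor, against 5.41 and 5.92 and was at least 5.54-fold lower. TNF family genes gave 2 rises and 2 falls among 15 (13.3% each). Ltb, lymphotoxin beta, read 10.77 and 10.36 against 5.48 and 5.89 and rose by 4.88 ± 0.25, or 29.4-fold. Tnfsf11, the RANK ligand, read 2.19 and 2.19 on both Ikaros arrays, at the lowest value of the table, against 5.55 and 5.602, and was at least 5.23-fold lower. Notch genes gave 1 rise and 2 falls among 15 (6.67% and 13.3%, near the 6.38% and 8.47% of all tested genes), with Notch1 falling by 1.14 ± 0.09. NuRD and other chromatin genes gave 2 rises and 3 falls among 36 (5.56% and 8.33%), shares near those of all tested genes, with a median of 0.02. As single genes, Mbd2, which reads methylated DNA, rose by 1.88 ± 0.08, Ezh2, the Polycomb methyltransferase, by 1.56 ± 0.10, and the DNA methyltransferases Dnmt1 and Dnmt3b fell by 1.74 ± 0.19 and by 1.29 ± 0.14.

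Among genes of any function clear of the floor, the largest rises after wild-type Ikaros were of Serpinb1a, Patj and Fetub. Serpinb1a, a protease inhibitor, read 10.39 and 10.47 in Ikaros cells and 3.25 and 3.69 in 159A cells, just above the floor limit, and rose by 6.96 ± 0.20, or 124-fold. Patj, a cell polarity scaffold, read 10.12 and 10.03 against 3.76 and 4.91 and rose by 5.73 ± 0.49. Fetub, a protease inhibitor, read 11.86 and 11.87 against 6.62 and 6.24 and rose by 5.44 ± 0.17, and the detoxifying enzyme gene Mgst1 read 11.09 and 10.67 against 5.52 and 5.69 and rose by 5.28 ± 0.20. Il16, a cytokine precursor, read 11.40 and 11.40 against 6.96 and 7.12 and rose by 4.36 ± 0.09, with a small spread in both groups. The others of the 15 largest, Slc46a3, Card6, Ifit1bl1, Ltb, Ap3m2, Zdhhc14, Shld1, H2-Ob, Klrd1 and Mir22hg, rose by between 4.26 and 5.11.

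The largest falls clear of the floor after Fbp1 were those of Poglut2 and Igll1. Poglut2, a glycosyltransferase of the secretory pathway, read 5.21 and 5.13 in Ikaros cells and 11 and 11.51 in 159A cells and fell by 6.08 ± 0.22, or 67.8-fold. Cgas, the sensor of cytosolic DNA, read 3.23 and 4.74 against 9.09 and 9.49 and fell by 5.30 ± 0.66, with more than 1 log2 unit between the Ikaros arrays. Mybl2, a cell cycle factor, read 3.74 and 4.93 against 9.31 and 9.11 and fell by 4.88 ± 0.51, again with Ikaros arrays that differed by more than 1 log2 unit. Ramp1, a receptor subunit for calcitonin gene-related peptide, read 7.15 and 6.46 against 11.75 and 11.75 and fell by 4.94 ± 0.30. Slc29a1, a nucleoside transporter, read 4.14 and 4.12 against 8.61 and 8.89 and fell by 4.62 ± 0.13, with both groups tight. Tmem119, Micall2, Mcrip2, Inka1, Ccnb1ip1, Kcnk6, Gnb1l and Ndrg1 made up the 15 and had differences between -5.21 and -4.69. Cgas, Ccnb1ip1, Kcnk6 and Klrd1 lost their call when values near the floor were raised to its limit.

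Where a group was near the floor, the bounds reached further. Edil3, an extracellular integrin ligand, read 13.04 and 14.12 in Ikaros cells and 3.30 and 2.40 in 159A cells and was at least 1288-fold higher. Wdfy3, an autophagy adaptor, read 10.82 and 10.25 against 2.36 and 2.31 and was at least 162-fold higher. Lct, the lactase gene, was at least 136-fold higher, with 10.63 and 10.02 against 3.07 and 3.28. Eqtn, Rnase6, Cldn9 and Fcgr3, of the 10 largest bounds upward, were at least 24.5-fold to 51.2-fold higher. Downward, Igfbp4, which binds insulin-like growth factors, read 2.49 and 2.49 in Ikaros cells and 11.37 and 10.43 in 159A cells and was at least 209-fold lower. Tbx19, a T-box factor, read 3.28 and 2.86 against 10.77 and 10.14 and was at least 149-fold lower. Enpp6, Rgcc, Tspan4, Hfe, Lyz1, Trgv4 and Arhgap31, besides Lmo2, were at least 35.1-fold to 81.3-fold lower.

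**Figure D4:**
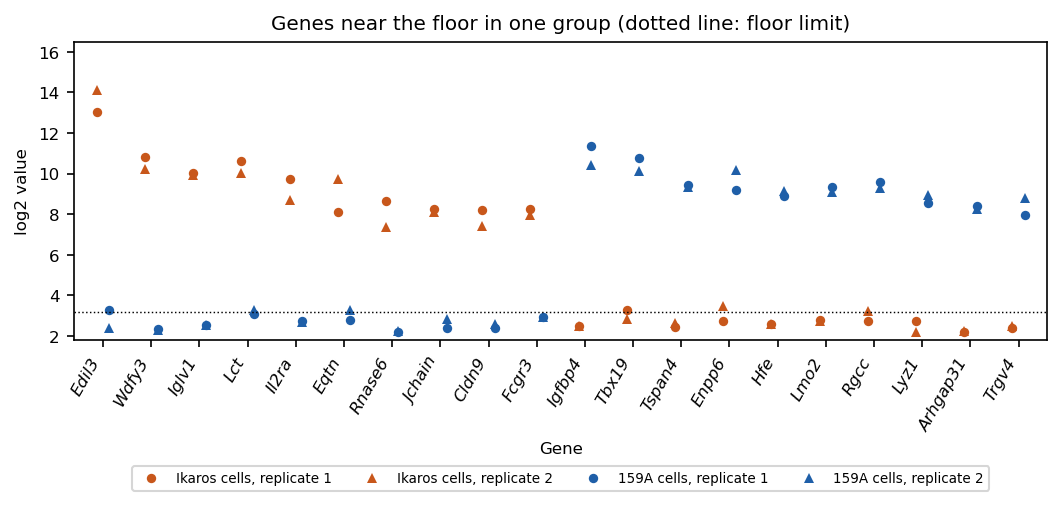
Log2 values on each array of the 10 genes with the largest bounds in each direction, Ikaros cells in orange and 159A cells in blue, circles for replicate 1 and triangles for replicate 2, with the floor limit of 3.19 as a dotted line. Genes on the left are near the floor in 159A cells and those on the right in Ikaros cells, and the other group lies at 7.36 or above throughout.

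Some of these genes are known from other cell types. Of myeloid markers Fcgr3 rose, from 2.93 and 2.93 to 8.27 and 7.97, while Lyz1 and Prtn3, granule genes, were lower. Lyz1 read 2.76 and 2.19 against 8.54 and 8.96 and Prtn3 read 3.18 and 3.82 against 8.29 and 7.96. The Lyz1 probe sets that were lower are of a kind that can also read similar sequences. The remaining Lyz1 probe set read 2.19 on all 4 arrays, the lowest value of the table. Of natural killer markers Klrd1 read 8.94 and 9.92 in Ikaros cells and 4.62 and 5.62 in 159A cells and rose, Prf1 read 4.17 and 4.03 against 2.81 and 2.81 and was at least 1.87-fold higher, and Nkg7 read 2.27 and 2.27 against 7.73 and 7.90 and was at least 24.6-fold lower. The summed level of the whole myeloid list, on a linear scale, was 362 to 417 in Ikaros cells and 805 to 856 in 159A cells. That of the natural killer list was 567 to 1041 against 296 to 347. The T-cell list gave 199 to 381 against 1180 to 1606, and the B-lineage markers 105665 to 108255 against 105533 to 114666. Such sums are carried by the brightest members and do not measure cell content. Most of the T-cell sum was Cd28, and most of the natural killer sum in Ikaros cells was Klrd1. The B-lineage sum adds genes that fell, such as Igll1, to genes that rose, such as Cd79b. The defining markers Csf1r, Csf3r and Itgam for myeloid cells, Ncr1 and Eomes for natural killer cells and Cd3d, Cd3e and Cd3g for T cells were near the floor in both groups. No T-cell, red cell or fibroblast marker passed among 5, 6 and 5 tested (limma, Benjamini-Hochberg). Of the T-cell markers Cd28 read 8.28 and 7.05 against 10.59 and 10.12, a difference of -2.69 ± 0.56 (limma, adjusted p = 0.0836). Its other probe set read 7.03 and 7.10 against 10.145 and 10.03, a difference of -3.02. Cd28 passed on centring (limma, adjusted p = 0.0248), with the stricter filter on low genes (0.0206) and with the mean of its probe sets (0.032). Under the other settings it did not pass.

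Other probe sets of the same genes gave the same direction as a rule. Of the called genes, 790 had a further probe set with a group above the floor, and 1263 of 1318 such probe sets, 95.8%, differed in the same direction. In 45 genes at least 1 probe set opposed the call, and in Ip6k1, Dusp12, Rnf157, Evi2a and St7l it did so by 1 log2 unit or more. St7l was the widest case, with 3.09 on the opposing probe set and -2.58 on the brightest one.

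The series holds a faster system on another array type, in which B3 cells carried Ikaros fused to the ERt2 hormone-binding domain and were given 4-hydroxytamoxifen for 6 h (3 arrays), with cells carrying ERt2 alone under the same exposure as control (3 arrays). It shares no array with the 48 h comparison and has another control. The first vector array is given as inducible Ikaros in one label and as vector in its title, which was followed. Ikzf1 read 9.16, 9.26 and 9.39 in the vector arrays and 13.31, 13.22 and 13.25 in the Ikaros-ERt2 arrays, a difference of 3.99 ± 0.08, and all 3 vector arrays were low. At 6 h 692 of 11963 tested genes passed (5.78%), 309 of them higher (2.58%) and 383 lower (3.2%).

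Of 9246 genes tested at both times, 62.4% differed in the same direction. Of the genes that rose at 48 h and were tested at 6 h, 84 of 612 had also risen at 6 h, which is 13.7% of the 48 h genes and 27.8% of the 302 genes that rose at 6 h. Of those that fell, 157 of 860 had also fallen at 6 h, which is 18.3% of the 48 h genes and 44.9% of the 350 at 6 h. The shared genes had a median of 1.83 at 48 h and 0.52 at 6 h for rises and of -2.18 and -0.52 for falls. The array types, vectors and controls differ, and the difference between times was not tested.

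Both surrogate light chain genes were among the shared falls. At 6 h Igll1 fell by 1.07 ± 0.12 and Vpreb1 by 1.17 ± 0.11. Among genes clear of the floor, the shared falls with the largest 48 h change were, beside Igll1, Poglut2, Ramp1, Mcrip2, Ccnb1ip1, Inka1, Kcnk6 and Dna2. Inka1, an inhibitor of a p21-activated kinase, read 6.997 and 6.24 against 11.37 and 11.53 at 48 h and fell by 4.83 ± 0.33, and at 6 h it fell by 1.14 ± 0.10. Myc fell at both times, by 2.86 ± 0.10 at 48 h and by 1.46 ± 0.14 at 6 h, and Lmo2 fell by 0.63 ± 0.08 at 6 h. The shared rises included Fcgr2b, which rose by 0.68 ± 0.09 at 6 h, Gadd45a, which rose by 0.65 ± 0.15, and Slc46a3, Ap3m2, Plch1, Stn1, Rab39 and Zfp36. Zfp36, which promotes decay of short-lived messenger RNAs, read 11.58 and 11.06 in Ikaros cells and 8.14 and 7.46 in 159A cells at 48 h.

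Members of 5 lists can be set beside their 48 h counts. Over all genes tested at 6 h, 2.58% rose and 3.2% fell. Ribosome biogenesis genes fell in 30 of 58 tested members at 6 h with a median of -0.37, and 19 of them fell at both times. Replication genes, of which 27 fell at 48 h, had 0 falls and 0 rises among 49 at 6 h (limma) and a median of 0.05. Those counts of 0 lie near the low shares of all genes at 6 h. Mitosis genes had 3 rises and 0 falls at 6 h with a median of 0.15. Nucleotide synthesis had 5 falls among 36 at 6 h, 4 of them shared, and a median of -0.12. Homologous recombination genes had 3 rises and 2 falls among 27.

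**Figure D5:**
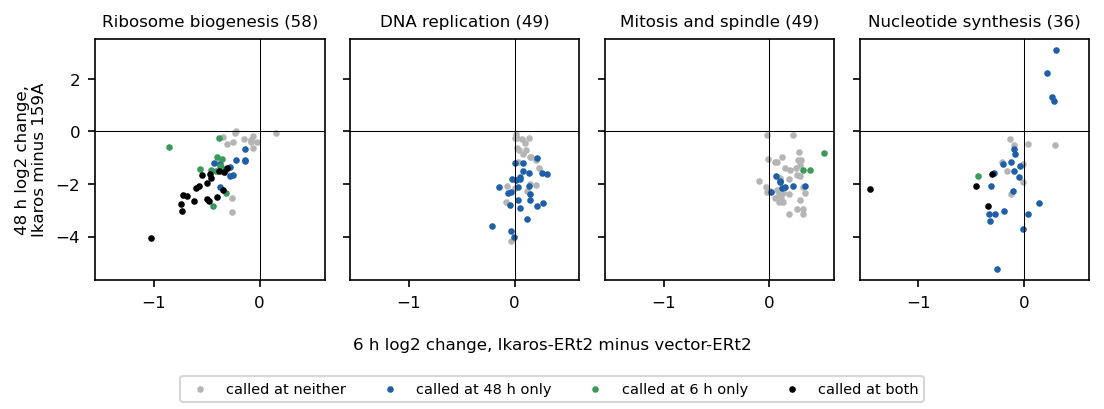
Log2 difference at 48 h (Ikaros minus 159A) against the log2 difference at 6 h (Ikaros-ERt2 minus vector-ERt2) for members of 4 gene lists tested at both times, coloured by the time at which they passed. Ribosome biogenesis genes lie to the lower left with 19 called at both times, while replication and mitosis genes lie around 0 or above at 6 h and below 0 at 48 h.

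A few genes moved in opposite directions. Il2ra was the 1 gene that rose at 48 h and fell at 6 h, by 0.75 ± 0.10. The genes that fell at 48 h and rose at 6 h numbered 9, among them Asf1b, Ctc1, Elovl7, Pik3r6, Rad54b, Slc7a3, Stmn1 and Tube1. Elovl7, a fatty acid elongase, fell by 3.98 ± 0.14 at 48 h and rose by 0.45 ± 0.11 at 6 h, and Stmn1, a microtubule regulator of dividing cells, fell by 1.20 ± 0.12 and rose by 0.37 ± 0.09. These 10 genes were picked out after their values were seen. Blnk, higher at 48 h without passing, fell by 0.94 ± 0.15 at 6 h.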

How the data were processed

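The deposited values are log2 expression values, 1 per probe set and array. Per the submitters' processing notes the authors used GCRMA, RMA, affy and limma, and which tool served which array type is not given in the sources used here. Per the labels' protocols, RNA for the 48 h arrays was amplified with an Affymetrix cDNA kit of repeated amplification cycles and labelled with biotin.

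On the 48 h array type 34958 of 45101 probe sets had 1 gene symbol in the platform annotation, 932 had several and 9211 were unnamed here, and 0 symbols changed against a reference gene table. Symbols can be old. The brightest probe set, by mean over the 4 arrays, stood for a gene. The lowest 40% of genes by that mean were not tested. In all 36.7% of values lay within 0.01 of the lowest value. Where 1 group's mean was within 1 log2 unit of it (3.19), folds are bounds, and where both were no fold is given. Bounds were computed with the values of the dimmer group set to that limit where they lay below it.

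Groups were taken from the sample titles and compared by limma, version 3.58.1, run in R 4.3.3 (lmFit, then eBayes). Tests were two-sided, and p-values were adjusted by Benjamini and Hochberg over all tested genes with a threshold of 0.05. The 6 h comparison came from 1 fit of all 9 arrays of its type. The array types were normalized separately and each was tested alone. The fit was tested on simulated data. For the 48 h design and 10916 genes, 3000 of them changed, it found 66.9% of changes of 1 log2 unit, 90.5% of 2 and 99% of 4, and with 200 changed 1.79%, 54% and 82.7%. For the 6 h design and 11963 genes, 200 of them changed, it found 92.7% of changes of 0.5 log2 units and 97.8% of 1. Simulated noise was independent between arrays and had no floor. In the data same-numbered 48 h arrays deviated together (Pearson r = 0.572), so the 48 h shares may not hold for these arrays.

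The arrays, the 41 gene lists and the tests were chosen with earlier results of these data known, so a list's count is a description, and no set test was run. Named genes were the 15 largest changes per direction clear of the floor, the 10 largest bounds per direction, up to 5 called members per list by smallest p (2 where none was called), the B-lineage markers, Ikzf1, and 8 genes per direction shared with 6 h. Genes named outside this rule are marked where they appear. The alternatives were other filters on low genes, quantile normalization again, centring, a raised floor, a trended and robust eBayes, a block for the replicate number, leaving out each array, other uses of the probe sets and, added after seeing the data, a test of genes clear of the floor alone. Some genes are not reported here.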

Additional observations from a re-analysis of the deposited data

How the results depend on the processing

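Of the 246 genes named with a fitted value, 235 passed at 48 h. Without a filter on low genes 185 genes passed at 48 h instead of 1621, and 37 instead of 241 were shared with 6 h. More genes were tested there, and 192 of the named genes lost their call. With each array centred on its median 2437 genes passed. With 1 array left out, a lone array being assumed to vary like the other group, 0 to 0 genes passed at 48 h and 0 to 0 were shared with 6 h, and the smallest adjusted p was 0.0807 to 0.199 (limma). At 6 h, 335 to 652 genes passed with 1 array left out instead of 692, the fewest without vector-ERt2 replicate 1, and 359 without Ikaros-ERt2 replicate 1. The other settings gave 1327 to 1948 genes at 48 h, the highest with quantile normalization again and the lowest with values near the floor raised to the limit. A test of genes clear of the floor alone, chosen after seeing the data, gave 1785.

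Same-numbered arrays of the 2 groups deviated together (Pearson r = 0.572 over 10916 genes), but there are only 2 pairs and the labels do not say that the numbers pair the samples. With the replicate number as a block 0 genes passed at 48 h, with 4493 at an unadjusted p under 0.05 and a smallest adjusted p of 0.0554, and 0 were shared with 6 h. At 6 h the block left 673.

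Named genes kept their direction under these settings with 4 exceptions. With the mean of a gene's probe sets Ikzf1 differed by -4.01 and passed there, and Evi2a by 0.055 and Ip6k1 by -0.069, neither of which passed there. Cd79a, which did not pass, differed by -0.024 without 159A replicate 2 and by 1.08 without 159A replicate 1. Of the named genes, 35 lost their call with values near the floor raised to the limit, among them Bmf, Ctss, Pcna, Foxo1, Cd79b and Icam1, and 31 with the mean of a gene's probe sets, among them B2m, Notch1, Foxm1, Gapdh, Socs2 and Dntt. Medians of the lists for the interleukin-7 pathway, Notch, TNF and stem and progenitor genes and for markers of T cells, myeloid cells, red cells and fibroblasts changed sign under at least 1 setting; those of replication (-1.96 to -1.62), mitosis (-2.39 to -1.27), ribosome biogenesis (-1.47 to -1.30) and nucleotide synthesis (-1.75 to -1.36) did not. With 2 arrays per group the precision is limited. Of the tested genes, 1561 had a group near the floor. In 1226 of them both groups were, which leaves no fold, and in the others sizes are bounds.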
